A study of Mus musculus with 15 samples.

Results

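The genes described here are 9 regulators of multiciliogenesis, the programme by which a cell builds many motile cilia: Gmnc, Mcidas, Ccno, Myb, Deup1, Foxj1, Rfx2, Rfx3 and Trp73. They were listed by name, and each was to be read from a probe set paired with exactly 1 gene symbol, the one with the highest mean over all arrays where a gene had several. All 9 of the 9 listed genes had such a probe set, among 22180 genes measured. Expression was measured on 15 single-channel Affymetrix arrays of total RNA from snap-frozen mouse tissue, with 5 arrays each of choroid plexus from normal mice, of its papillomas and of its carcinomas, and the tissues of a group came from different mice. The choroid plexus is a tissue of the brain ventricles whose epithelium secretes cerebrospinal fluid, and papilloma and carcinoma are its benign and malignant tumours.

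Normal tissue came from mice of genotype Myc/Myc; p53fl/fl with no Cre. Papillomas came from Atoh1-Cre; Myc/Myc mice and carcinomas from Atoh1-Cre; Myc/Myc; p53fl/fl mice. All groups therefore carried the Myc allele, the normal tissue shared the floxed p53 allele with the carcinomas, and the background of all groups was a mix of C57Bl/6 and 129. Cre in the tumour mice was driven by Atoh1, a gene of neural progenitors, and the labels do not say which cells of the choroid plexus it reached. Ages are not given in the sources used here. Papilloma differed from normal tissue in Cre and in the floxed p53 allele at once, and the contributions of these cannot be told apart.

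A multiciliated cell leaves the cell cycle, makes many centrioles, docks them at its surface as basal bodies and grows a motile cilium from each. Gmnc and Mcidas are geminin-like coiled-coil proteins at the top of this cascade, and they act with E2F4 or E2F5 and a DP partner to switch on the genes below them. Ccno, Myb and Deup1 serve the production of centrioles, Deup1 as a builder of the deuterosome, the platform on which most new centrioles form, while Trp73, Foxj1 and the RFX factors drive the genes of the motile axoneme. Cells of the choroid plexus epithelium normally carry tufts of such cilia.

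The members did not move as a block. Gmnc, Mcidas, Myb and Deup1 were higher in carcinoma than in normal tissue, Foxj1, Rfx2 and Trp73 were lower, and Ccno and Rfx3 did not pass the threshold. The promoters of 3 of these genes held a motif of a factor of the same cascade and are shown so that the values can be read beside them. Letters come from RefSeq (GRCm38.p6), cover the 250 bases before the start of the transcript and are written 5′ to 3′ on the strand of the gene, with the motif in capitals.
Deup1: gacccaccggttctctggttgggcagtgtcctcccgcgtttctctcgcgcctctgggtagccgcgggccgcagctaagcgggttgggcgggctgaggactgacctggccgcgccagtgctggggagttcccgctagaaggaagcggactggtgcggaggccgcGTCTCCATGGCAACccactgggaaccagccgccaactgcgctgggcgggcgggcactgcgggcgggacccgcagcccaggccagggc
Ccno: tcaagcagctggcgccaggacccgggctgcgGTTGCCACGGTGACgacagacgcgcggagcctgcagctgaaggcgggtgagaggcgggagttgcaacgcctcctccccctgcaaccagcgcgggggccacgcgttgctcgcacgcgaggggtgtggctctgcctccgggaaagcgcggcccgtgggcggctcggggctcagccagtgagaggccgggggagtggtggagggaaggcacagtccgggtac
Myb: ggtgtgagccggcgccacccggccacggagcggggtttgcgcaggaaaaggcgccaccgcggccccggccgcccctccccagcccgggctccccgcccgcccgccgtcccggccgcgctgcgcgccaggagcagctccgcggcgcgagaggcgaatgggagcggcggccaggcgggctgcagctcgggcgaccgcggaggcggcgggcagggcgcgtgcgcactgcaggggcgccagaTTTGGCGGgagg
The Deup1 window, chr9:15627847-15628096 on the minus strand, held an RFX X-box (GT, any 2 bases, CC, any 3 bases, G, any base, AAC) that began 87 bases before the start. The Ccno window, chr13:112987552-112987801 on the plus strand, held an X-box 219 bases before the start, whose pattern reads on the strand opposite to the one printed. The Myb window, chr10:21160985-21161234 on the minus strand, held an E2F motif (TTTGGCGG) 12 bases before the start. An X-box was found in 590 of 32851 promoter windows of this length (1.8%) and an E2F motif, any of TTTGGCGC, TTTCCCGC and TTTGGCGG, in 567 (1.73%), with both strands searched. A forkhead motif (TGTTTAC), in 1040 of the windows (3.17%), was found in no window of a member. The table held 11 windows for 8 of the 9 members, and those of Gmnc, Mcidas, Rfx2, Rfx3 and Trp73, and a further window of Deup1, held none of the motifs. A match describes letters in the window and is not a measured binding site.

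Arrays differed little in scale, with medians of 6.79 to 6.90 on the log2 scale. Transthyretin (Ttr), the most abundant secreted product of choroid plexus epithelium, lay between 14.42 and 14.58 in all 15 arrays, at the top of the scale, so that it shows the tissue but not an even epithelial content. The mean of 11 epithelial markers was 13.09 to 13.14 in normal tissue, 12.56 to 12.85 in papilloma and 12.45 to 12.78 in carcinoma, with 6 of the 11 lower in each tumour type and 0 higher. Normal arrays 2 to 5 held both Xist (10.69 to 12.48) and Y-linked transcripts (mean 7.72 to 9.74), which 0 of 10 tumour arrays did. The labels do not state that animals were pooled. In whole tissue, fewer ciliated cells and less RNA of a gene per cell cannot be told apart. The comparisons of carcinoma and of papilloma with normal tissue share the 5 normal arrays, so their values stand side by side here and are not set against each other.

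In carcinoma against normal tissue, 7 of the 9 members passed an adjusted p of 0.05 in limma, 4 higher and 3 lower, where 37.9% of all genes passed, 18.7% higher and 19.2% lower. In papilloma against normal tissue, 6 of the 9 passed, 3 higher and 3 lower, where 33.2% of all genes passed, 17% higher and 16.3% lower. In carcinoma against papilloma, 6 of the 9 passed, all higher in carcinoma, where 11.4% of all genes passed and 6.24% were higher and 5.17% lower. The median log2 difference of the members was 0.13 for carcinoma against normal, -0.02 for papilloma against normal and 0.47 for carcinoma against papilloma, beside -0.02, 0.01 and -0.03 for all genes. The ranges of both groups were separate for 7 members in carcinoma against normal (29.9% of all genes), 5 in papilloma against normal (32.1%) and 3 in carcinoma against papilloma (7.9%).

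**Figure D1:**
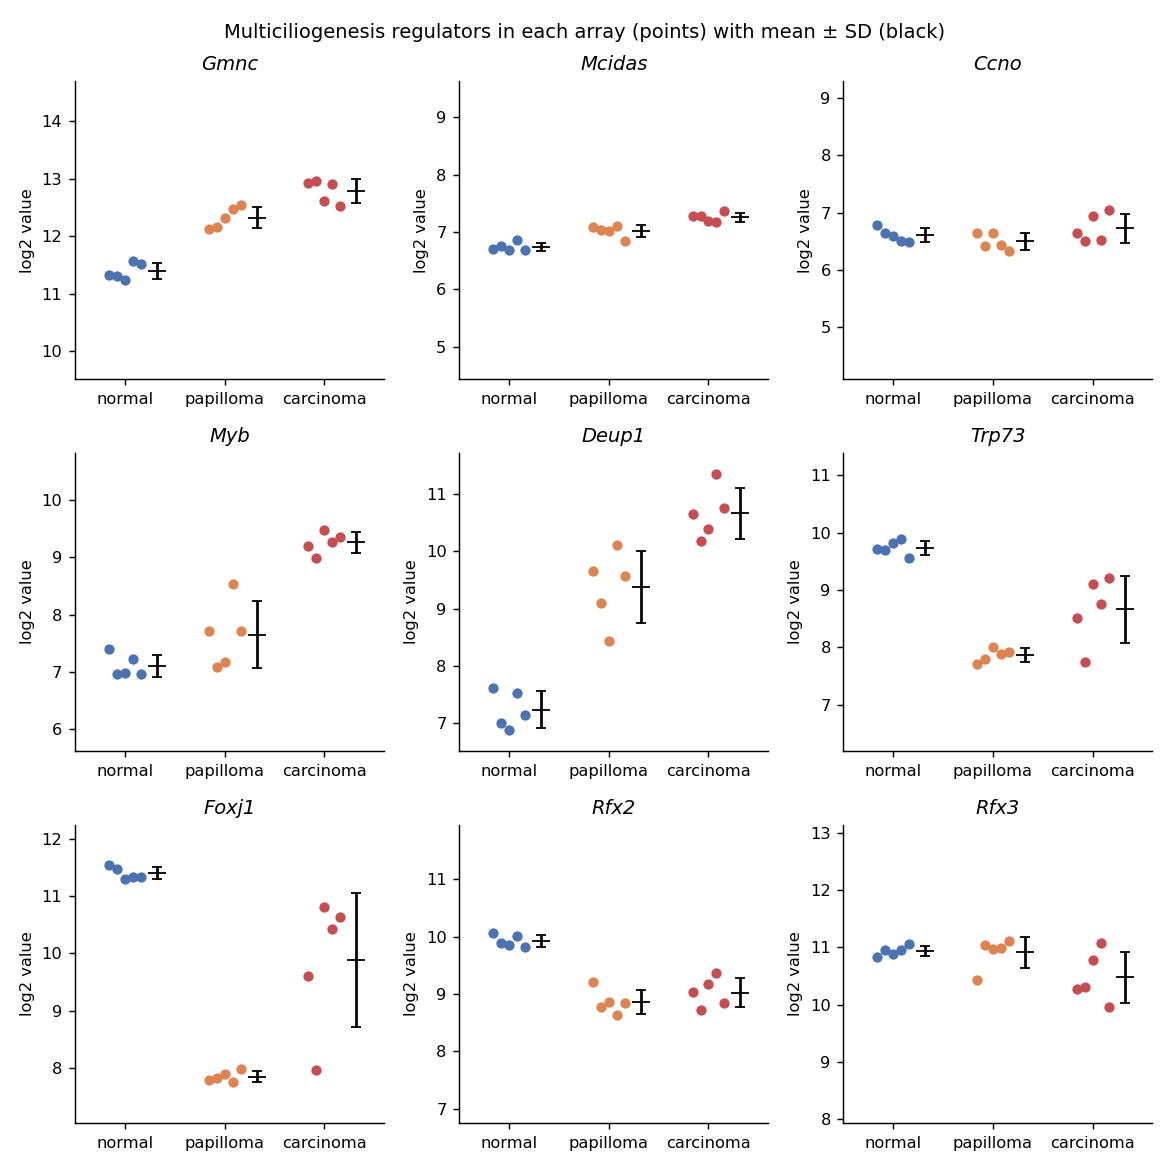
Log2 value (vertical axis) of each of the 9 regulators in every array (points) in normal tissue, papilloma and carcinoma, with the group mean and SD in black (n = 5 each). Gmnc and Deup1 stand higher in both tumour groups than in every normal array, while Foxj1, Rfx2 and Trp73 stand lower, and Foxj1 spreads from 7.96 to 10.81 among the carcinomas.

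Gmnc, which starts the cascade, was higher in both tumour types. Its log2 values were 11.33, 11.30, 11.24, 11.56 and 11.52 in normal arrays 1 to 5, 12.13, 12.16, 12.32, 12.47 and 12.54 in papilloma and 12.93, 12.97, 12.61, 12.91 and 12.53 in carcinoma. Every tumour array lay above every normal array, and the lowest carcinoma, array 5, lay just below the highest papilloma. Gmnc rose by 1.40 (SE 0.11, 2.64-fold, adjusted p = 5.66e-08 in limma) in carcinoma and by 0.93 (SE 0.11, 1.91-fold, adjusted p = 5.45e-06) in papilloma, and was 0.47 higher in carcinoma than in papilloma (SE 0.11, adjusted p = 0.0114).

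Mcidas, which acts just below Gmnc, rose by much less, from a level near the array median. Its log2 values were 6.70, 6.76, 6.69, 6.86 and 6.69 in normal tissue, 7.09, 7.03, 7.02, 7.10 and 6.84 in papilloma and 7.28, 7.27, 7.19, 7.17 and 7.37 in carcinoma. The carcinomas lay above all other arrays, and papilloma array 5 lay below normal array 4. The rise was 0.51 (SE 0.07, 1.43-fold, adjusted p = 1.5e-05 in limma) in carcinoma and 0.28 (SE 0.07, 1.21-fold, adjusted p = 0.00437) in papilloma. Carcinoma was 0.24 above papilloma (SE 0.07, adjusted p = 0.0331), a call that was lost without any 1 of carcinoma arrays 1, 2 and 5 or papilloma arrays 2, 3 and 5 (0.19 to 0.24, adjusted p = 0.0578 to 0.0851). Differences this close to the array median are compressed by the summary method.

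Ccno, a cyclin-like protein needed for full centriole number, is the neighbour of Mcidas on chromosome 13 and did not pass in any comparison. In log2 units the arrays of Ccno read 6.79, 6.65, 6.59, 6.50 and 6.49 in normal tissue, 6.65, 6.42, 6.65, 6.44 and 6.34 in papilloma and 6.64, 6.50, 6.95, 6.52 and 7.05 in carcinoma. The 3 groups overlapped, and carcinoma arrays 3 and 5 were the highest of all. The difference from normal tissue was 0.13 in carcinoma (95% interval -0.11 to 0.37, adjusted p = 0.424 in limma) and -0.10 in papilloma (-0.34 to 0.14, adjusted p = 0.556), and carcinoma minus papilloma was 0.23 (-0.01 to 0.47, adjusted p = 0.223). In RefSeq order the genes that follow Ccno and Mcidas are Cdc20b and the microRNA genes Mir449c, Mir449b and Mir449a, a locus active in multiciliated cells. None of these 4 passed the threshold in any comparison, with differences of -0.27 to 0.47. Group means of Mir449a (6.36 to 6.53) and Mir449c (4.28 to 4.74) lay below the array medians, as did those of Ccno. Cdc20b lay near them (6.80 to 7.14). Probe sets this dim show little of a change, so its absence cannot be read from them. Mir449b stood at 13.16 to 13.21, far above the other genes of the locus, and whether its probe set reports this microRNA was not tested.

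Myb, a transcription factor that acts early in centriole amplification and also in dividing progenitors, was higher in carcinoma. Its log2 values were 7.40, 6.96, 6.99, 7.22 and 6.97 in normal tissue, 7.72, 7.08, 7.18, 8.54 and 7.72 in papilloma and 9.19, 8.99, 9.48, 9.27 and 9.36 in carcinoma. All carcinomas lay above all other arrays, while papilloma arrays 2 and 3 lay within the normal range and papilloma array 4 stood highest of its group. The papilloma SD of 0.58 was larger than that of 97.3% of genes. Myb rose by 2.15 in carcinoma over normal tissue (SE 0.21, 4.42-fold, adjusted p = 7.24e-07 in limma) and was 1.60 above papilloma (SE 0.21, 3.04-fold, adjusted p = 0.000212).

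Papilloma minus normal for Myb was 0.54 (SE 0.21, 95% interval 0.09 to 0.99, adjusted p = 0.0634 in limma), on the other side of the threshold without papilloma array 2 (0.68, adjusted p = 0.0172) or 3 (0.66, adjusted p = 0.0297), and 0.32 without papilloma array 4 (adjusted p = 0.138). A further probe set of Myb, with a lower mean of 7.25, gave 0.20 for carcinoma against normal (SE 0.08, adjusted p = 0.0641 over all probe sets) and 0.10 for carcinoma against papilloma (adjusted p = 0.534). The 2 probe sets thus disagreed in the size of the change. Their mean, which includes the chosen set, gave 1.17 and 0.85, both past the threshold. The chosen set was kept for its higher mean over all arrays, which its carcinomas raised (9.26, against 7.11 in normal tissue). The choice thus used the values that were then compared.

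Deup1, the deuterosome scaffold, had the largest rise of the 9. The log2 values of Deup1 were 7.62, 7.01, 6.88, 7.53 and 7.14 in normal tissue, 9.66, 9.10, 8.44, 10.10 and 9.56 in papilloma and 10.64, 10.17, 10.39, 11.35 and 10.76 in carcinoma. The 3 groups followed each other without overlap, with papilloma array 3 the lowest of the tumours and carcinoma array 4 the highest, and the normal arrays lay near the array median. Deup1 rose by 3.42 in carcinoma (SE 0.27, 10.7-fold, adjusted p = 7.52e-08 in limma), the rise that ranked 23 among all genes, and by 2.13 in papilloma (SE 0.27, 4.39-fold, adjusted p = 1.48e-05). Carcinoma was 1.29 above papilloma (SE 0.27, 2.45-fold, adjusted p = 0.00629). Cep63, the paralogue of Deup1 that serves centriole duplication in dividing cells, fell by 0.52 in carcinoma (SE 0.09, adjusted p = 0.000208) and by 0.58 in papilloma (adjusted p = 9.91e-05).

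Trp73, the p53-family factor that acts upstream of Foxj1, was lower in both tumour types. Log2 values of Trp73 were 9.71, 9.70, 9.82, 9.88 and 9.55 in normal tissue, 7.70, 7.80, 8.01, 7.89 and 7.91 in papilloma and 8.51, 7.74, 9.10, 8.75 and 9.21 in carcinoma. Every tumour array lay below every normal array, the papillomas lay close together, and carcinoma array 2 alone lay within the papilloma range. Trp73 fell by 1.87 in papilloma (SE 0.20, 3.65-fold, adjusted p = 2.36e-06 in limma) and by 1.07 in carcinoma (SE 0.20, 2.1-fold, adjusted p = 0.00049). It was 0.80 higher in carcinoma than in papilloma (SE 0.20, 1.74-fold, adjusted p = 0.0178). That last call was lost in a fit on only the groups compared (adjusted p = 0.0726) and without papilloma arrays 2 and 4 (adjusted p = 0.075). The probe set does not separate the isoforms of the gene.

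Foxj1, the forkhead factor that drives motile cilium genes, fell furthest of the 9 in papilloma and varied most among carcinomas. Its log2 values were 11.54, 11.48, 11.30, 11.34 and 11.34 in normal tissue, 7.79, 7.83, 7.90, 7.75 and 7.99 in papilloma and 9.60, 7.96, 10.81, 10.42 and 10.64 in carcinoma. Normal tissue and papilloma each held a narrow range (SD 0.10 and 0.09), while carcinoma array 2 lay within the papilloma range and the other carcinomas lay between papilloma and normal tissue. The carcinoma SD of 1.17 was larger than that of 99.4% of genes.

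Foxj1 fell by 3.55 in papilloma against normal tissue (SE 0.38, 11.7-fold, adjusted p = 2.36e-06 in limma), a fall that ranked 53 among all genes. In carcinoma it fell by 1.51 (SE 0.38, 2.85-fold, adjusted p = 0.00498), and carcinoma was 2.03 above papilloma (SE 0.38, 4.1-fold, adjusted p = 0.00281). These sizes moved with carcinoma array 2. Without it the fall in carcinoma was -1.03 (adjusted p = 0.000304) and carcinoma minus papilloma was 2.52.

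Rfx2, an RFX factor of cilium genes, was lower in both tumour types. Rfx2 stood at log2 values of 10.07, 9.89, 9.85, 10.02 and 9.82 in normal tissue, 9.21, 8.78, 8.87, 8.64 and 8.84 in papilloma and 9.03, 8.72, 9.17, 9.37 and 8.85 in carcinoma. All tumour arrays lay below all normal arrays, and papilloma and carcinoma overlapped. Rfx2 fell by 1.06 in papilloma (SE 0.12, 2.09-fold, adjusted p = 4.55e-06 in limma) and by 0.90 in carcinoma (SE 0.12, 1.87-fold, adjusted p = 1.95e-05). Carcinoma minus papilloma was 0.16 (95% interval -0.10 to 0.42, adjusted p = 0.476).

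Rfx3, a further RFX factor of ciliated cells, did not pass in any comparison. Its log2 values were 10.83, 10.96, 10.88, 10.95 and 11.06 in normal tissue, 10.44, 11.04, 10.98, 10.99 and 11.12 in papilloma and 10.27, 10.31, 10.78, 11.08 and 9.96 in carcinoma. Carcinoma arrays 1, 2, 3 and 5 lay below all normal arrays and carcinoma array 4 lay above them, and papilloma array 1 stood below the other papillomas. Carcinoma minus normal was -0.46 (SE 0.18, 95% interval -0.83 to -0.08, adjusted p = 0.0531 in limma), papilloma minus normal was -0.02 (-0.40 to 0.35, adjusted p = 0.944) and carcinoma minus papilloma was -0.43 (-0.81 to -0.06, adjusted p = 0.138). Without carcinoma array 4, carcinoma was -0.61 below normal tissue (adjusted p = 0.00496) and -0.58 below papilloma (adjusted p = 0.0204), and the first of these also passed without carcinoma array 3 (adjusted p = 0.0346) or papilloma array 1 (adjusted p = 0.0348).

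**Figure D2:**
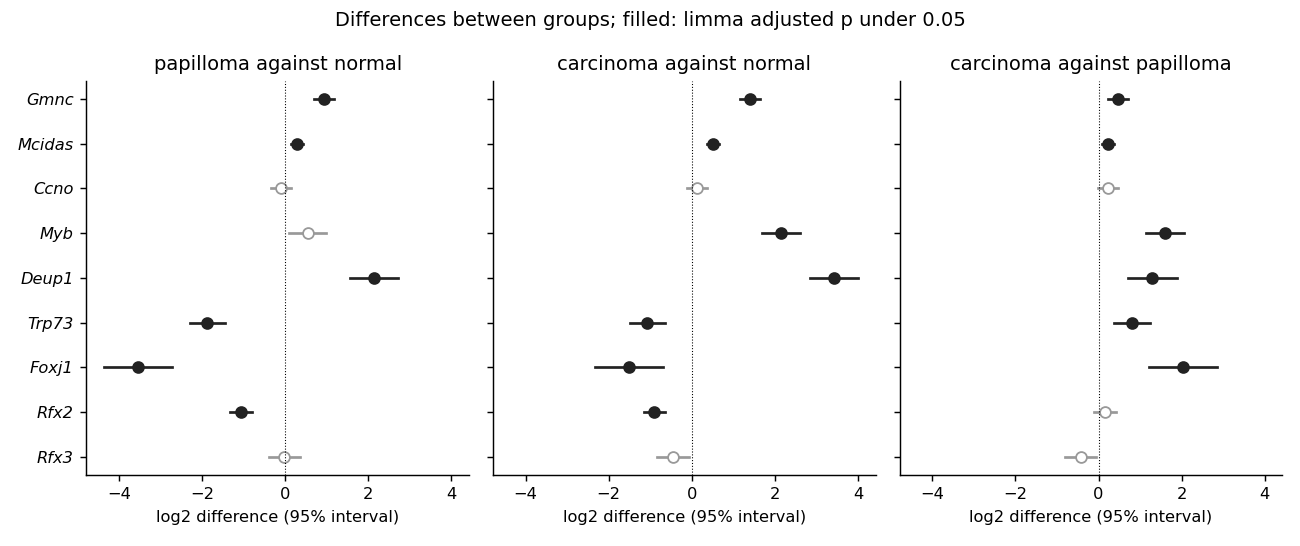
Log2 difference (horizontal axis, with its 95% interval) of each regulator in carcinoma against normal, papilloma against normal and carcinoma against papilloma (n = 5 arrays a group, limma). Deup1 lies furthest to the right against normal tissue (3.42 and 2.13) and Foxj1 furthest to the left (-1.51 and -3.55), while no regulator that passed was lower in carcinoma than in papilloma.

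The order of the groups thus took 2 forms among the members that passed in all 3 comparisons. Gmnc, Mcidas and Deup1 were lowest in normal tissue and highest in carcinoma, with papilloma between. Foxj1 and Trp73 were highest in normal tissue and lowest in papilloma, with carcinoma between. Myb placed the groups in the first order, but papilloma and normal tissue did not differ beyond the threshold, and for Rfx2 both tumour types lay below normal tissue and did not differ from each other beyond the threshold.

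Among the carcinomas, array 2 was the lowest in Foxj1 (7.96), Trp73 (7.74) and Rfx2 (8.72), also in Deup1 (10.17), Myb (8.99) and Ccno (6.50), and the highest in Gmnc (12.97). Arrays 3 and 5 were the highest in Foxj1 (10.81 and 10.64), in Trp73 (9.10 and 9.21) and in Ccno (6.95 and 7.05). The mean of 33 measured motile cilium genes was also lowest in carcinoma array 2 (7.00, against 7.25 to 7.84 in the others), and its mean of 14 cell division genes was the highest (10.84, against 9.59 to 10.47). Carcinoma array 5 combined a high Foxj1 (10.64) with a motile cilium mean of 7.25, the lowest after array 2, and with the lowest cell division mean (9.59). In the motile cilium mean all carcinomas stayed below 9.66, the lowest normal array. The part of cell division in these levels was not tested.

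**Figure D3:**
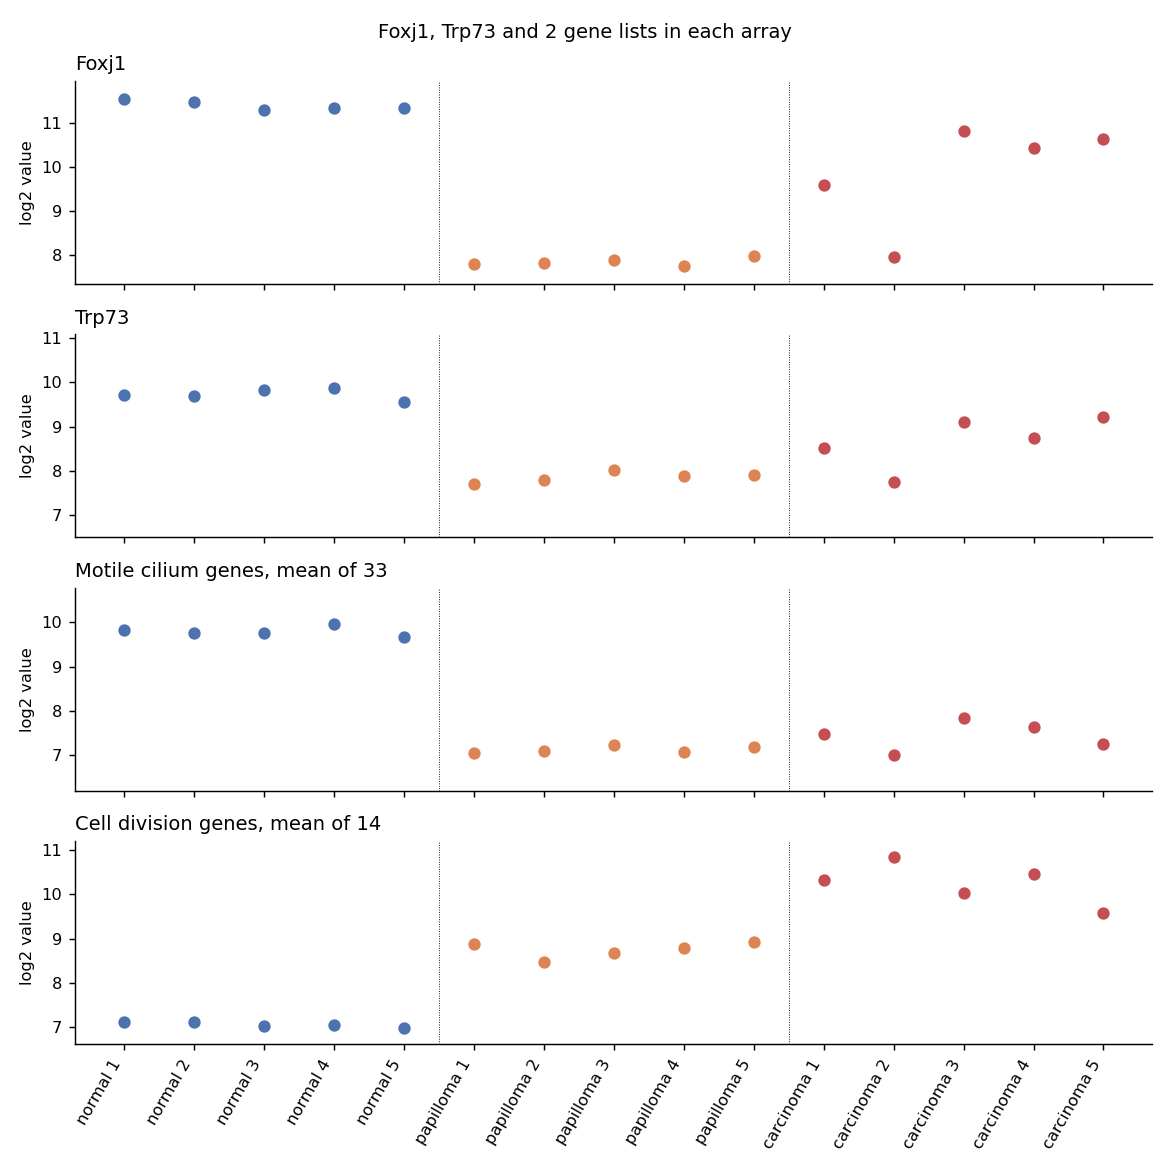
Log2 values of Foxj1 and Trp73 and the mean log2 values of the motile cilium and cell division lists (vertical axes) in each of the 15 arrays (horizontal axis). Carcinoma array 2 shows Foxj1 at 7.96 and the motile cilium mean at 7.00, the lowest of the carcinomas, beside the highest cell division mean at 10.84.

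The binding partners and neighbours of the first regulators passed the threshold in a share near that of all genes. Of 11 measured upstream partners, 2 were higher and 2 lower in carcinoma against normal tissue (median 0.17), 2 higher and 1 lower in papilloma (median 0.07), and 1 higher in carcinoma against papilloma (median 0.01). These are 36.4%, 27.3% and 9.09% of the list, beside 37.9%, 33.2% and 11.4% of all genes. Gmnn, the geminin that binds Gmnc and Mcidas and restrains DNA replication, rose by 1.09 in carcinoma (SE 0.16, 2.13-fold, adjusted p = 4.25e-05 in limma) and was 0.94 above papilloma (adjusted p = 0.00137), while papilloma minus normal was 0.15 (adjusted p = 0.534). The normal (6.60 to 6.78) and papilloma values (6.78 to 6.98) of Gmnn lay near the array medians, so these sizes are uncertain. Tfdp1, which encodes a DP partner of the E2F proteins, rose by 0.92 in carcinoma (adjusted p = 3.69e-05) and by 0.81 in papilloma (adjusted p = 0.000154). E2f4, the E2F partner of Gmnc and Mcidas, rose by 0.59 in papilloma (adjusted p = 0.00827) and gave 0.37 in carcinoma (adjusted p = 0.0777). Mir34b, of a microRNA family of multiciliated cells, fell by 0.41 in carcinoma (adjusted p = 0.00404). Its normal values (6.31 to 6.73) already lay below the array medians, which leaves that size uncertain. Tfdp2, of a further DP partner, fell by 0.28 in papilloma (adjusted p = 0.0336) and in carcinoma (adjusted p = 0.0318).

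Paralogues of the members changed in both directions. Of 11 measured, 6 were higher and 3 lower in carcinoma (median 0.18), 3 higher and 2 lower in papilloma (median 0.04), and 2 higher and 1 lower in carcinoma against papilloma (median 0.05). The shares past the threshold were 81.8%, 45.5% and 27.3%, beside 37.9%, 33.2% and 11.4% of all genes. Mybl2 and Mybl1, the other MYB factors, rose in carcinoma by 0.63 and 0.57, while Rfx4 fell by 0.58. In papilloma Rfx7 rose by 0.52 and Rfx1 fell by 0.64, and in carcinoma they rose by 0.36 and fell by 0.52. Trp63, the paralogue of Trp73 in stratified epithelia, rose by 0.38 in papilloma and was -0.25 lower in carcinoma than in papilloma. Rfx4 (group means 6.20 to 6.78) and Trp63 (6.76 to 7.14) lay below or near the array medians, so the sizes of their changes are uncertain.

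Centriole assembly genes, most of which also serve dividing cells, changed in both directions against normal tissue. Of 20 measured, 7 were higher and 6 lower in carcinoma (median -0.10), 3 higher and 8 lower in papilloma (median -0.04), and 10 higher and 0 lower in carcinoma against papilloma (median 0.24). The shares past the threshold were 65%, 55% and 50%, beside 37.9%, 33.2% and 11.4% of all genes. Plk4, the kinase that starts centriole duplication, rose by 1.52 in carcinoma (2.87-fold, adjusted p = 6.36e-08 in limma), and Stil, its partner at the new centriole, rose by 2.46 (adjusted p = 4.69e-07) from normal values of 5.82 to 6.18, below the array medians, so that its size is uncertain. Both were higher in carcinoma than in papilloma, by 1.24 and 1.65. Cep152, the partner of Deup1 and Cep63 in recruiting Plk4, gave 0.17 in carcinoma (adjusted p = 0.137) and -0.14 in papilloma (adjusted p = 0.264). It was 0.31 higher in carcinoma than in papilloma (adjusted p = 0.0296). Cetn4, a centrin of ciliated cells, fell by 1.47 in carcinoma and by 1.34 in papilloma. Ccp110, which caps centrioles, fell by 1.40 in carcinoma and by 1.42 in papilloma.

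Genes of basal body maturation and of the motile cilium, which act after the members, were lower in both tumour types. Of 10 measured basal body genes, 1 was higher and 7 lower in carcinoma (median -0.46) and 0 higher and 7 lower in papilloma (median -0.53). Cep83, which builds the appendages by which a centriole docks at the membrane, fell by 1.45 in carcinoma and by 1.97 in papilloma, while Ofd1 rose by 0.43 in carcinoma. Of 33 measured motile cilium genes, 0 were higher and 31 lower in carcinoma (median -2.45) and 0 higher and 32 lower in papilloma (median -2.63). Past the threshold were 80% and 70% of the basal body list in carcinoma and papilloma. For the motile cilium list the shares were 93.9% and 97%, beside 37.9% and 33.2% of all genes. Rsph4a, of the radial spoke head, fell by 4.51 in carcinoma (adjusted p = 2.3e-09 in limma) and by 5.23 in papilloma, where its values (6.06 to 6.61) lay below the array medians and the size is uncertain. The genes that did not pass were Ccdc40 in both (0.18, adjusted p = 0.536 and -0.52, adjusted p = 0.0654) and Tekt2 in carcinoma (-0.22, adjusted p = 0.161).

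Between the tumour types most of these genes did not pass, but several motile cilium genes had group means below the array medians in both. Among them were Hydin (6.72 in papilloma and 6.60 in carcinoma), Cfap43 (5.83 and 5.94) and Ak7 (6.68 and 6.75), while others such as Rsph9 (9.56 and 9.52) lay above. Likeness of the tumour types cannot be read from probe sets that dim, which show little of a change. In carcinoma against papilloma, 7 of the 33 motile cilium genes were higher and 1 lower (median 0.12), and 2 of the 10 basal body genes were higher, which is 24.2% and 20% of the lists beside 11.4% of all genes. Mlf1 was 2.05 above papilloma (adjusted p = 5.25e-05 in limma), Pifo, of the cilium base, 1.72 (adjusted p = 0.00316) and Cfap52, of the axoneme, 1.12 (adjusted p = 0.0104), while Ak8 was -0.53 lower. The papilloma values of Mlf1 (5.17 to 5.79) and Pifo (5.73 to 6.47) lay below the array medians, which leaves the sizes of their differences uncertain. All 14 measured cell division genes were higher in carcinoma and in papilloma than in normal tissue (medians 3.19 and 1.59) and in carcinoma than in papilloma (median 1.58). Mki67, the proliferation marker, rose by 3.97 in carcinoma and by 2.29 in papilloma.

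**Figure D4:**
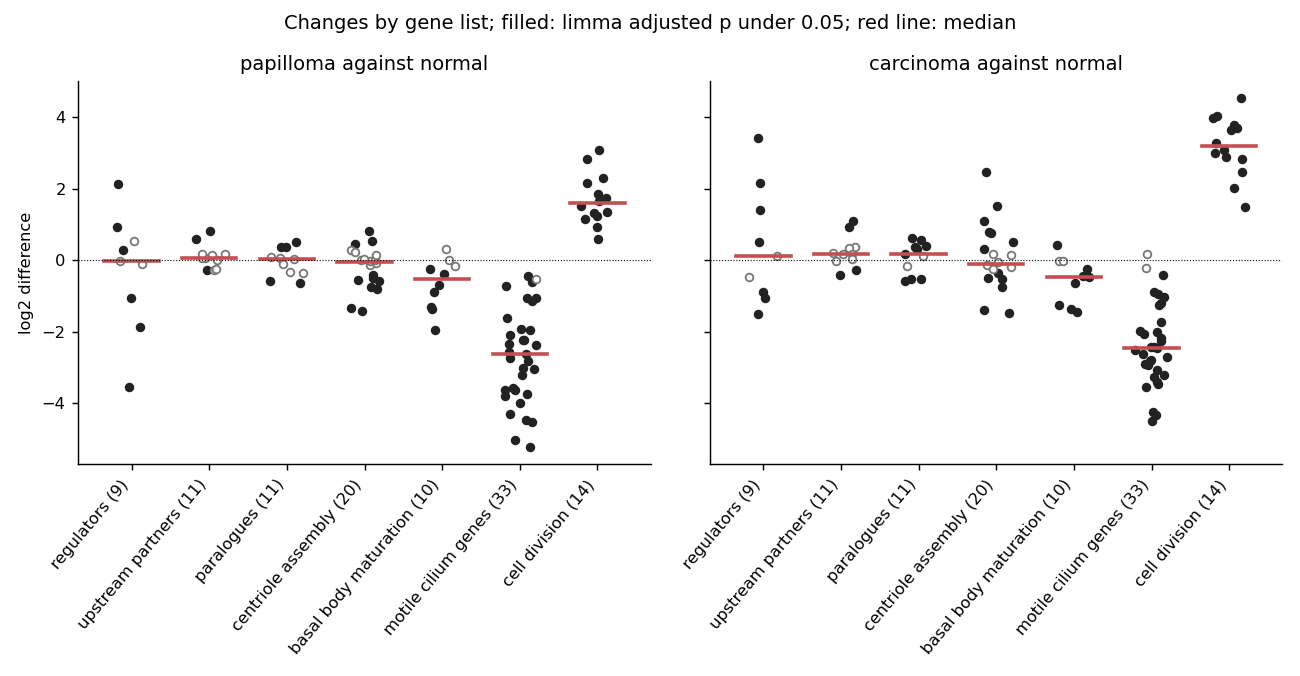
Log2 difference (vertical axis) of each measured gene (points, filled where the limma adjusted p was under 0.05) of each list (number of genes in brackets) in papilloma and carcinoma against normal tissue, with the median as a red line. The motile cilium genes lie below 0 except Ccdc40 in carcinoma (medians -2.63 and -2.45), the cell division genes lie above 0 (1.59 and 3.19), and the regulators lie on both sides.

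Markers of other cell types differed between the groups to varying extent, and their counts stand beside 37.9% of all genes past the threshold in carcinoma and 33.2% in papilloma against normal tissue. The mean of 7 ependymal markers was 8.05 to 8.69 in normal tissue, 7.82 to 8.60 in papilloma and 7.95 to 8.23 in carcinoma, with 1 higher and 3 lower in carcinoma and 1 higher and 1 lower in papilloma. That mean joins opposite changes. Gja1 rose by 1.85 in carcinoma and 1.28 in papilloma, while Tmem212 fell by 1.09 and 1.12, and Ccdc153 (-0.49) and Hdc (-0.26) also fell in carcinoma. A steady ependymal content cannot be read from it. Neuron markers had means of 8.62 to 9.15, 7.54 to 9.75 and 7.44 to 8.05, with papilloma arrays 2 (9.75) and 4 (8.98) above the rest of their group, and 5 of 9 were lower in carcinoma and 2 in papilloma. Oligodendrocyte means were 8.46 to 8.85, 7.46 to 8.24 and 7.43 to 8.00, and those of fibroblasts and meninges 9.39 to 9.53, 7.83 to 8.29 and 8.08 to 8.43. Of 7 oligodendrocyte markers 6 were lower in carcinoma and 4 in papilloma, and of 8 fibroblast and meningeal markers 5 and 6 were lower and 1 higher in each. Endothelial means were 8.51 to 8.97, 8.92 to 9.37 and 9.23 to 9.62, macrophage means 8.02 to 8.29, 8.01 to 8.10 and 8.00 to 9.02, and blood cell means 6.88 to 7.24, 7.38 to 7.59 and 7.58 to 8.07. Of 7 endothelial markers 4 were higher in each tumour type, of 7 macrophage markers 1 in carcinoma and 0 in papilloma, and of 4 blood cell markers 2 and 1, with none lower. The blood cell list held 4 of 7 listed genes, and its mean moved mostly with Kit (9.12, 10.85 and 11.48). Cd79a also passed in carcinoma (0.67). Ptprc (6.24, 6.13 and 6.39) and Cd3e (6.57, 6.46 and 6.42) did not pass and had means below the array medians. The share past the threshold was below that of all genes for macrophage markers in carcinoma (14.3%), and in papilloma for macrophage (0%), neuron (22.2%), blood cell (25%) and ependymal markers (28.6%). Their part in the member differences was not tested, but without papilloma arrays 2 and 4 the 6 members called in papilloma became 7, with Myb added (0.43, adjusted p = 0.0433 in limma), and those called in carcinoma against papilloma became 4, without Mcidas (0.27, adjusted p = 0.0669) and Trp73 (0.79, adjusted p = 0.075). Without normal arrays 2 to 5, which held transcripts of both sexes, only normal array 1 was left and its spread was assumed to be that of the other groups. In that fit the differences were -1.65 for Foxj1, -1.05 for Trp73 and 3.04 for Deup1 in carcinoma and -3.69, -1.85 and 1.75 in papilloma, and nothing was read from its lost calls because the normal group held 1 array.

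The genes whose pattern lay closest to a member were found for the 6 members with a change of at least 1 on the log2 scale, as the smallest root mean square log2 difference over the 15 arrays after each gene's own normal mean was subtracted. For Foxj1 these were Pifo (0.47), Efhb (0.52) and Tinagl1 (0.54). For Trp73 they were Plpp1 (0.21), Lmntd2 (0.21) and N4bp3 (0.27), and for Rfx2 Riiad1 (0.12), Tmem30a (0.15) and Ift74 (0.15), of which Ift74 encodes a protein of intraflagellar transport. Deup1 lay closest to Ube2c (0.52), H1f10 (0.56) and Hmmr (0.56), Myb to Rbl1 (0.34), Tspan15 (0.36) and Dsn1 (0.36), and Gmnc to Mfsd1 (0.15), Topbp1 (0.17) and Hdac8 (0.17). Ube2c and Hmmr act in mitosis and Dsn1 at the kinetochore. Among the members themselves, Deup1 and Foxj1 lay furthest apart (4.39), while Foxj1 and Trp73 lay 1.06 apart. This distance grows with the size of the changes, so it does not compare shapes alone.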

How the data were processed

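The deposited values are log2 RMA summaries per probe set, made by the authors with Affymetrix Expression Console, per the submitters' processing notes, which give no version. RMA subtracts background, equalises the arrays' intensity distributions and compresses small changes of dim probe sets. For the probe annotation, no genome build is stated in the sources used here. Of 41345 probe sets, 23521 had exactly 1 gene symbol, 1814 several and 16010 none. The set with the highest mean stood for each of 22180 genes.

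Groups came from the sample titles. Limma 3.58.1 in R 4.3.3 fitted the group to all 15 arrays (12 residual degrees of freedom), with two-sided p-values, adjusted over all genes by the Benjamini-Hochberg method, and a threshold of 0.05. The fit was tested on simulated data. A fold is 2 to the power of the absolute log2 difference. Arrays have no read depth, and their number limits the precision.

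The members and lists were chosen with earlier results of these data known. Named from each list were up to 3 called genes with the largest change in the commoner direction and 1 in the other. Cep63, Cep152, E2f4 in carcinoma, the Mir449 locus and genes that did not pass were named after their values were seen.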

Additional observations from a re-analysis of the deposited data

Results flagged for a closer look

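Of 27 combinations of a member and a group examined for an array far from the others, 1 was found, about the number that chance gives at 1 in 20. Rfx3 was 10.44 in papilloma array 1, with 10.98 to 11.12 in the other 4 papillomas.

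The difference between the tumour types was itself tested, as carcinoma minus papilloma in limma, and 6 members passed. The values were 0.47 for Gmnc, 0.24 for Mcidas, 1.60 for Myb, 1.29 for Deup1, 2.03 for Foxj1 and 0.80 for Trp73. The calls of Mcidas and Trp73 were not kept under every alternative run. Carcinoma lay further from normal tissue than papilloma did for Gmnc, Mcidas, Myb and Deup1, and nearer to it for Foxj1 and Trp73.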

How the results depend on the processing

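No member result past the threshold changed sign, and 19 of 27 member results kept their side of the threshold under every alternative run. Foxj1 and Trp73 in carcinoma against normal and Mcidas in papilloma against normal changed side only without normal arrays 2 to 5. As that fit leaves 1 normal array, these changes of side are not read as instability. Among member results not past the threshold, Ccno in carcinoma against normal (0.13) became -0.06 without normal arrays 2 to 5, and Rfx3 in papilloma against normal (-0.02) lay between -0.09 and 0.10. With 1 array left out in turn, 7 to 8 members passed in carcinoma against normal, 6 to 7 in papilloma against normal and 5 to 7 in carcinoma against papilloma. Replicate numbers did not pair the arrays (r of -0.10 to 0.14 over 15 same-numbered pairs, 2 over 0.1). With them as a replicate block, 7, 7 and 5 members passed, with Myb in papilloma added (adjusted p = 0.0442) and Mcidas between the tumours lost (adjusted p = 0.071). Array weights and a fit on only the groups compared gave 7 and 4 members in carcinoma against papilloma. Lost in the second of these fits were Mcidas (adjusted p = 0.0964) and Trp73 (adjusted p = 0.0726). The fits without normal arrays 2 to 5 and without papilloma arrays 2 and 4 were added after seeing the data. The first leaves 1 normal array, takes its spread from the other groups and says nothing about stability. Rfx3 in carcinoma had adjusted p = 0.00485 to 0.581 over the alternatives, the highest in the fit with 1 normal array. In papilloma, 5 upstream partners passed with array weights and 2 to 5 with 1 array left out (5 without normal array 1), and between the tumours 1 to 3 (3 without carcinoma array 5). A fit on carcinoma and papilloma alone called 1 paralogue, 5 centriole assembly, 0 basal body and 4 motile cilium genes, and leaving out 1 array called 6 to 10 centriole assembly genes (6 without papilloma array 2). For those counts with fewer arrays the fit also has fewer residual degrees of freedom.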
